A study of Homo sapiens with 6 samples.

Results

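Cilia genes are described here across 3 treatment groups of the neuroblastoma line SH-SY5Y, an established human culture that grew from a tumour of the sympathetic lineage. They were chosen by symbol alone: protein-coding genes whose symbol begins with CFAP, or with DNAH, DNAI, IFT or BBS followed by a digit, each read from its brightest probe set over the 6 arrays. The rule found 64 genes among 14884 genes with a named probe set. Of these, 37 were CFAP genes (cilia and flagella associated proteins), 16 were IFT genes (intraflagellar transport), 8 were BBS genes (Bardet-Biedl syndrome) and 3 were DNAI genes (axonemal dynein intermediate chains and relatives). RefSeq lists 95 protein-coding genes under the same rule. The other 31, which include all 13 DNAH genes (the axonemal dynein heavy chains), had no named probe set and were not analysed here. A further 6 symbols under the rule that are antisense RNAs, a divergent transcript or a pseudogene were left out.

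A cilium is a microtubule axoneme enclosed by membrane and anchored on a centriole. Most cells, neurons and neuroblasts among them, can build a single immotile primary cilium, which receives signals such as Hedgehog, whereas the motile cilia of airway and ependymal cells and the sperm tail carry dynein arms, radial spokes and a central pair of microtubules. Intraflagellar transport moves cargo along the axoneme, with the IFT-B complex leading the way to the tip and the IFT-A complex needed for the return and for entry of membrane proteins. The BBSome, a coat built of BBS proteins, carries membrane proteins out of the cilium as cargo of the same trains. The IFT and BBS genes therefore serve primary and motile cilia alike, while many CFAP and DNAI genes encode parts of the motile axoneme.

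Cells had received methanol as solvent control (mock), the plant alkaloid securinine at 30 µM or the compound 16F16 at 4 µM for 24 h. Each group has 2 arrays of this one line, with no transgene or other treatment named. The doses of the compounds differ, so a difference between them is between the treatments as given. No matched dose allows a comparison of the molecules themselves. Expression was read on Affymetrix Human Gene 2.0 ST arrays and deposited as log2 values, so that a difference of 1 is a doubling. The 2 arrays of a group are labelled as biological replicates, but it is not stated whether they came from separate cultures, and p-values measure the spread between these samples only. A gene was called changed at an adjusted p under 0.05 in a limma fit of all 14884 genes, with Benjamini-Hochberg adjustment over all of them. Both comparisons against mock use the same mock arrays, and the comparison of 16F16 with securinine uses the same treated arrays again.

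The arrays had similar overall levels, with array medians of 4.16 to 4.23 on the log2 scale. Over all probe sets they correlated at 0.986 to 0.990 within groups and 0.979 to 0.986 between them. Noradrenergic neuroblastoma markers were high: 11 of 12 measured lay above the upper quartile of all probe sets (6.12), the exception being TH, the tyrosine hydroxylase of catecholamine synthesis. Of 6 measured mesenchymal or fibroblast markers 4 also lay above that quartile. Of 11 measured markers of multiciliated cells, 7 lay at or below the median of all probe sets (4.20) and 4 of 5 sperm markers did so. Of 7 epithelial, blood and endothelial markers, 3 did so and 1 lay above the upper quartile. None of these markers was at 0, and the files used here hold no detection call.

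Most cilia genes were measured well within the range of the arrays. By mean over the 6 arrays, 29 of the 64 lay above the upper quartile of all probe sets, 18 between the median and the upper quartile, 12 between the lower quartile (2.83) and the median, and 5 at or below the lower quartile. Most IFT and BBS probe sets lay high in that range: 14 of 16 IFT genes and 7 of 8 BBS genes lay above the upper quartile, against 8 of 37 CFAP genes and 0 of 3 DNAI genes. The 5 at or below the lower quartile were CFAP genes: CFAP107, CFAP95, CFAP47, CFAP299 and CFAP300. For them a low level and no expression cannot be told apart. Brightness also depends on the probes, so places are against all probe sets and do not rank genes.

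Securinine lowered a group of cilia genes and raised none. In the limma fit 12 of the 64 fell (18.8%) and 0 rose, where 10.6% of all genes tested fell (12.2% of the protein-coding ones) and 8.40% rose. Without adjustment, 23 cilia genes were lower (35.9%, beside 18.7% of all genes) and 1 (DNAI3) was higher (1.56%, beside 14.9%) at p under 0.05. The median difference from mock was -0.18 on the log2 scale, against -0.04 over all genes, and differences ran from -1.17 (CFAP69) to 0.44 (DNAI3). Both securinine arrays lay below both mock arrays for 33 of the 64 cilia genes (51.6%), beside 33.9% of all genes and 36.8% of the protein-coding ones. They lay above for 8 of the 64, beside 27.0% of all genes. Among genes above the median of all probe sets, 11 of 47 cilia genes fell (23.4%), beside 13.9% of all genes at such levels. Of the 17 cilia genes at or below that median, CFAP73 was the one that fell.

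The count rests on few arrays. Leaving out a mock or a securinine array gave fewer cilia genes called lower, and fewer genes called in all. The median difference of the cilia genes stayed between -0.22 and -0.14 with any array left out. BBS2, CFAP263, CFAP418 and IFT70B were called in each of the 14 alternative fits that were run, those with an array left out included.

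**Figure D1:**
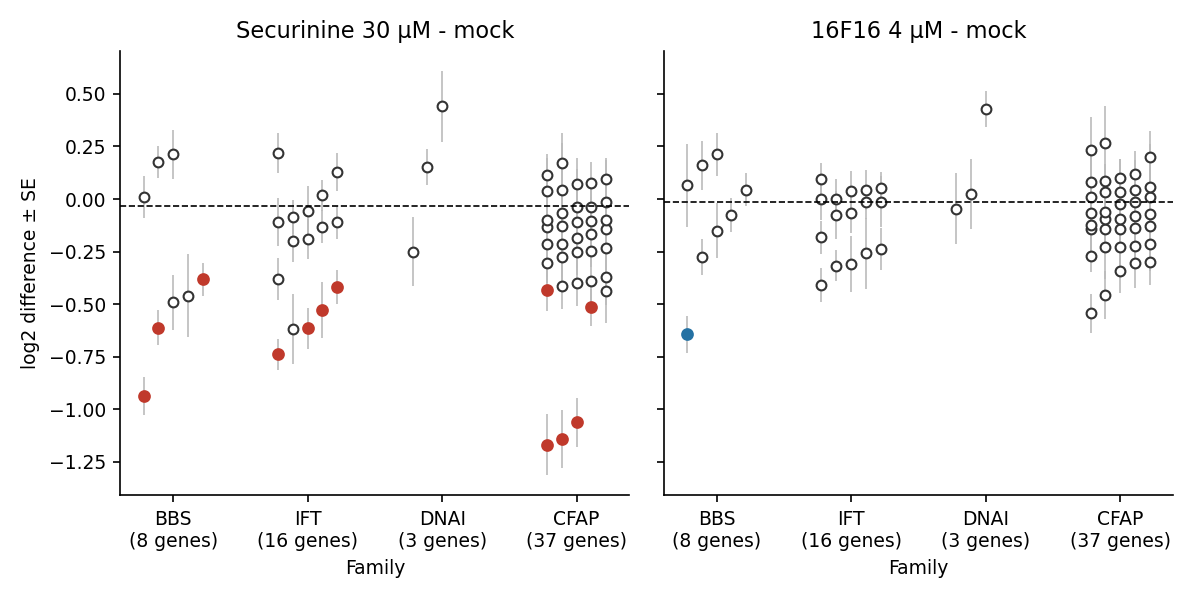
Log2 difference from mock for each of the 64 cilia genes by family, for securinine (left) and 16F16 (right); bars are standard errors from the limma fit, filled points are called genes and the dashed line is the median of all genes tested. With securinine 12 genes were called, all lower, and the family medians were -0.16 (CFAP), -0.16 (IFT), -0.42 (BBS) and 0.15 (DNAI); with 16F16 BBS2 alone was called.

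The BBS genes had the lowest median difference of the families with securinine, at -0.42. Of the 8, 3 fell (37.5%, beside 12.2% of all protein-coding genes). BBS2, a subunit of the BBSome, read 8.59 and 8.48 in the mock arrays, 7.66 and 7.54 with securinine, and 7.87 and 7.92 with 16F16. Both treatments lay below mock without overlap, securinine lowest. The securinine difference was -0.94 ± 0.089 (SE, n = 2 arrays each), a 1.91-fold lower level, with a limma adjusted p of 0.0042. BBS4, another BBSome subunit, read 8.42 and 8.51 in mock, 8.07 and 8.10 with securinine, and 8.42 and 8.36 with 16F16. The securinine arrays lay lowest, at -0.38 ± 0.080 from mock (adjusted p = 0.027), and the 16F16 arrays just below mock, at -0.08 (adjusted p = 0.64). BBS10, a chaperonin-like protein needed to assemble the BBSome, read 7.30 and 7.35 in mock, 6.73 and 6.70 with securinine, and 6.99 and 7.11 with 16F16. The 3 groups did not overlap, with securinine lowest, and its difference from mock was -0.61 ± 0.084 (adjusted p = 0.0089).

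The other BBS genes did not pass the test. BBS5, also of the BBSome, lay just outside at -0.49 ± 0.13 (adjusted p = 0.052), and BBS12, the other chaperonin-like gene, was at -0.46 ± 0.20 (adjusted p = 0.17). The remaining BBSome subunits had values above 0: BBS9 at 0.01, BBS7 at 0.18 and BBS1 at 0.21. Subunits of one complex thus had calls for some and not for others, and whether they differ from each other was not tested. BBSome genes named outside the rule also moved. TTC8 (known as BBS8) fell by 0.54 on the log2 scale (SE 0.12, adjusted p = 0.035), the GTPase gene ARL6 (BBS3), which recruits the BBSome to membranes, by 0.40 (SE 0.076, adjusted p = 0.021), and LZTFL1 (BBS17), a regulator of BBSome entry, by 0.41 (SE 0.078, adjusted p = 0.020). CEP19, a centriolar protein that starts ciliary transport, rose by 0.55 (SE 0.11, adjusted p = 0.024). Of 8 measured genes on that list, 3 fell (37.5%) and 1 rose (12.5%), beside 10.6% and 8.40% of all genes. Their median was -0.24.

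Of the IFT genes 4 of 16 fell with securinine (beside 12.2% of all protein-coding genes) and 0 rose (beside 9.13%). No IFT gene was higher at p under 0.05 before adjustment, beside 16.0% of all protein-coding genes. For 12 of the 16 both securinine arrays lay below both mock arrays, as for 33.9% of all genes, and the median difference was -0.16. In the IFT-A complex, IFT122 read 6.76 and 6.79 in mock, 6.21 and 6.11 with securinine, and 6.80 and 6.61 with 16F16. Only the securinine arrays stood below, by -0.62 ± 0.097 (adjusted p = 0.012). A pseudogene copy, IFT122P3, has its own probe set at 4.92 on average, so some sharing of signal is possible. That probe set was at 0.06 with securinine (limma adjusted p = 0.83). IFT140, another large subunit of that complex, read 6.74 and 6.66 in mock, 6.26 and 6.31 with securinine, and 6.25 and 6.33 with 16F16. Both treatments lay at the same level below mock, with a securinine difference of -0.42 ± 0.082 (adjusted p = 0.022). IFT43, a small subunit, was at 0.13 ± 0.090 (adjusted p = 0.40).

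The other IFT-A subunits carry other symbols. WDR35 (IFT121) fell by 0.89 with securinine on the log2 scale (SE 0.10, adjusted p = 0.0060), from 9.29 and 9.47 in mock to 8.46 and 8.53. WDR19 (IFT144) was at -0.33 (adjusted p = 0.057) and TTC21B (IFT139) at 0.29 (adjusted p = 0.14). With IFT122 and IFT140, this made 3 subunits of IFT-A that fell.

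In the larger IFT-B complex, 2 of 13 genes fell (15.4%, near the 12.2% of all protein-coding genes). IFT70B, a subunit of repeated helices also called TTC30B, read 6.84 and 6.86 in mock, 6.13 and 6.09 with securinine, and 6.51 and 6.56 with 16F16. The groups did not overlap, with 16F16 between the others, and the securinine difference was -0.74 ± 0.075 (adjusted p = 0.0046). Its near-identical neighbour IFT70A was at -0.62 ± 0.17 (adjusted p = 0.055). Because the copies can share signal, how much each contributed is uncertain, and the dimmer probe set of IFT70A was at -0.24. IFT46, a core subunit that carries outer dynein arms in motile cilia, read 6.71 and 6.56 in mock, 5.99 and 6.22 with securinine, and 6.20 and 6.45 with 16F16. The securinine arrays lay below mock and overlapped those with 16F16. Its difference of -0.53 ± 0.13 (adjusted p = 0.045) was the one just inside the threshold, and IFT52, also of the core, at -0.38 ± 0.10 (adjusted p = 0.051), the one just outside.

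The IFT-B genes other than IFT46, IFT52 and the IFT70 pair lay between -0.20 (IFT57) and 0.22 (IFT74) with securinine, and none passed the test. IFT80, the brightest IFT probe set at 8.37, was at -0.09 ± 0.081 (adjusted p = 0.52), and IFT27, a small GTPase that links the trains to BBSome export and the dimmest at 5.55, was at -0.06 (adjusted p = 0.78). The tubulin-binding subunits IFT81 and IFT74 were at -0.13 and 0.22. Among 14 measured transport genes named outside the rule, 3 fell (21.4%, beside 10.6% of all genes) and 1 rose (7.14%, beside 8.40%). Besides WDR35, these were DYNC2I2, an intermediate chain of the retrograde motor dynein-2, which fell by 0.42 (adjusted p = 0.034), and KIFAP3, the adaptor of the anterograde motor kinesin-2, which fell by 0.40 (adjusted p = 0.025). KIF3C, a kinesin-2 motor subunit, rose by 0.53 (adjusted p = 0.021).

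**Figure D2:**
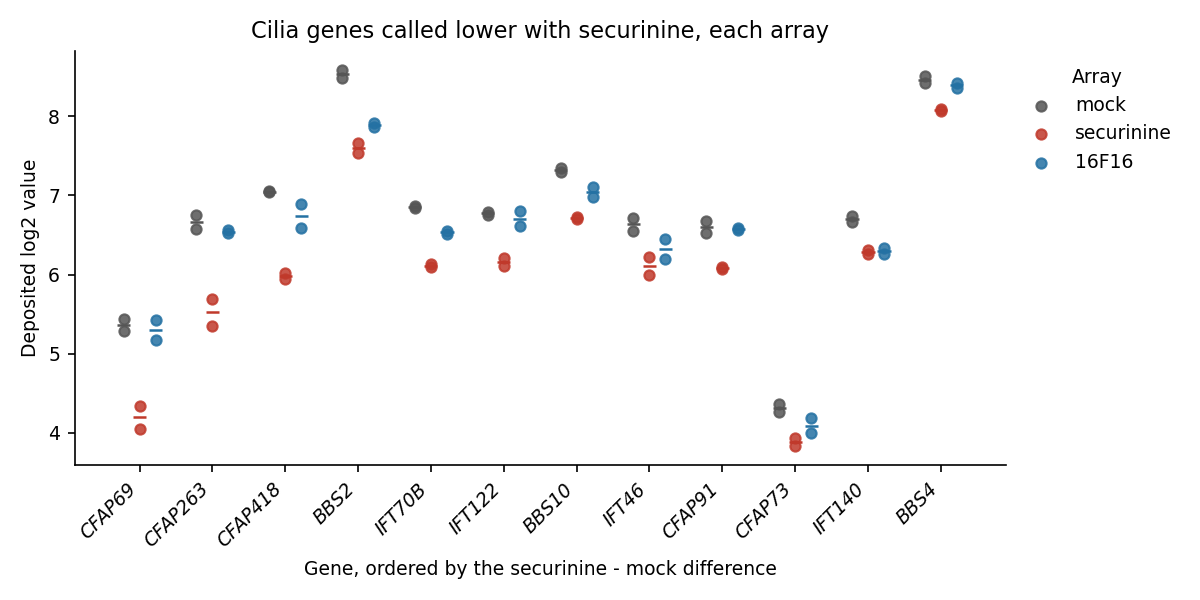
Log2 values on each of the 6 arrays for the 12 cilia genes called lower with securinine, ordered by the size of the difference; points are single arrays, coloured by group, and short lines are group means. For every gene both securinine points lie below both mock points, while the 16F16 points lie at the level of mock for CFAP69 and CFAP91 and near securinine for IFT140.

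Among the CFAP genes 5 of 37 fell with securinine (13.5%, near the 12.2% of all protein-coding genes) and 0 rose (beside 9.13%). No CFAP gene was higher at p under 0.05 before adjustment, beside 16.0% of all protein-coding genes. Of the 5 that fell, 3 moved by more than 1 on the log2 scale. CFAP69, a protein of the central apparatus of sperm tails and other motile axonemes, read 5.28 and 5.44 in mock, 4.05 and 4.34 with securinine, and 5.43 and 5.17 with 16F16. The securinine arrays lay well below, and mock and 16F16 overlapped. The difference was -1.17 ± 0.14, a 2.25-fold lower level (adjusted p = 0.0069). CFAP263, an axonemal coiled-coil protein also called CCDC113, read 6.75 and 6.58 in mock, 5.35 and 5.70 with securinine, and 6.52 and 6.57 with 16F16. The 3 groups did not overlap, with 16F16 just below mock and securinine lowest, at -1.14 ± 0.14 from mock (adjusted p = 0.0065). CFAP418, a protein of photoreceptors whose loss causes retinal degeneration, read 7.05 and 7.05 in mock, 5.95 and 6.02 with securinine, and 6.89 and 6.59 with 16F16. Securinine was lowest and 16F16 lay a little below mock without overlap, with a securinine difference of -1.06 ± 0.12 (adjusted p = 0.0054).

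CFAP91, part of the calmodulin-associated complex at the base of radial spokes, read 6.52 and 6.68 in mock, 6.10 and 6.07 with securinine, and 6.57 and 6.59 with 16F16. Mock and 16F16 overlapped and securinine lay below both. The securinine difference was -0.51 ± 0.088 (adjusted p = 0.016), and the dim second probe set of the gene, at 2.44 on average, was at -0.24. CFAP73, a protein of the complex that tunes inner dynein arms, read 4.36 and 4.26 in mock, 3.83 and 3.93 with securinine, and 3.99 and 4.18 with 16F16. The 3 groups did not overlap, with 16F16 between the others. It fell by 0.43 (SE 0.10, adjusted p = 0.037) at a level near the median of all probe sets. CFAP100, its partner in that complex, was at 0.17 ± 0.14 (adjusted p = 0.48), and CFAP184, the partner of CFAP263, at 0.04 ± 0.17 (adjusted p = 0.91). For both pairs, then, a call for one partner had none for the other, and the difference between partners was not tested.

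By place in the axoneme, 3 of 11 genes of complexes on its surface fell (27.3%: CFAP263, CFAP91 and CFAP73). Of the central apparatus 1 of 5 fell (20.0%: CFAP69). Both shares stand beside 12.2% of all protein-coding genes. The next of the central apparatus, CFAP46 at -0.41 (adjusted p = 0.053) and CFAP65 at -0.40 (adjusted p = 0.054), were just short of the threshold. CFAP65-AS1, an antisense RNA outside the rule, fell by 0.70 (adjusted p = 0.028), and the probe set of CFAP65 was not checked for shared sequence. None of 11 genes of proteins inside the microtubules fell or rose, with 2 at p under 0.05 before adjustment. The brightest CFAP probe sets were among these: CFAP20, at 9.57 on average, was at 0.11 ± 0.079 (adjusted p = 0.38), and CFAP68, at 9.05, at -0.25 (adjusted p = 0.076). Of the genes for assembly of dynein arms, CFAP298 was at -0.25 (adjusted p = 0.078) and CFAP300, the dimmest of all 64 at 1.99, at -0.04 (adjusted p = 0.83).

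None of the 3 DNAI genes passed the test in any comparison. DNAI3 and DNAI4, intermediate chains of inner dynein arms, were at 0.44 ± 0.17 (adjusted p = 0.13) and 0.15 ± 0.086 (adjusted p = 0.29) with securinine. DNAI7, a related axonemal protein, was at -0.25 ± 0.16 (adjusted p = 0.36). All 3 lay below the upper quartile of all probe sets, and DNAI3 and DNAI7 below the median.

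The promoters of these genes were read for the X-box, the element bound by RFX transcription factors, which drive many ciliary genes. The X-box was searched as GTNNCC, then 0 to 3 bases, then GGNNAC, which equals its own reverse complement, so that both strands are covered. Windows ran from 250 bases before to 50 after the start, from RefSeq on GRCh38.p14. The table holds 66 windows for 59 of the 64 genes and none for BBS9, CFAP300, CFAP418, CFAP73 and DNAI4. An X-box was found in 18 windows (27.3%), beside 3.87% of all 35116 windows and 4.55% of the 13726 windows of measured protein-coding genes. One arm of the motif in its common form, GTTGCC on either strand, which an X-box can contain, was in 33 of the 66 windows, beside 12.2% of all. These are descriptions of sequence, and a match is not shown to be a bound site.

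The following stretches end at the start or at a motif that crosses it, and show the range among genes that fell with securinine: CFAP263 (chr16:58249686-58249935, plus strand) and IFT122 (chr3:129439974-129440226, plus strand) with an X-box, IFT70B (chr2:177552797-177553046, minus strand) with that single arm at its end, and BBS2 (chr16:56520025-56520274, minus strand) with no match. Capitals mark the X-box or single arm, and each is written 5′ to 3′ on the strand of its gene.
CFAP263: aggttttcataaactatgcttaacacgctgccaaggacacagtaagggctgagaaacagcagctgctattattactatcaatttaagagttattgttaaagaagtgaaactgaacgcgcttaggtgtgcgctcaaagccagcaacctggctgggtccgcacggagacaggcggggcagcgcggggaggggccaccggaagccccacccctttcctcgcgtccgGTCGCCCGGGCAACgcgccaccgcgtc
IFT122: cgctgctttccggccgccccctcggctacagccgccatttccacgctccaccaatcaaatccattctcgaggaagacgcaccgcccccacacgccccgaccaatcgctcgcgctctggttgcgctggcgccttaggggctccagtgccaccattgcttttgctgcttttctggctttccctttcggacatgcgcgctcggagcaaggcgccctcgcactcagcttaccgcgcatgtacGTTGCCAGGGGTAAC
IFT70B: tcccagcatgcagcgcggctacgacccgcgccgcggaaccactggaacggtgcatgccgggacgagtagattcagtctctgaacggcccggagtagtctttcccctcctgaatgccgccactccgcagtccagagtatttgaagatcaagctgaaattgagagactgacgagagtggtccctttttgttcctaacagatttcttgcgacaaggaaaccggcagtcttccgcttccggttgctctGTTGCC
BBS2: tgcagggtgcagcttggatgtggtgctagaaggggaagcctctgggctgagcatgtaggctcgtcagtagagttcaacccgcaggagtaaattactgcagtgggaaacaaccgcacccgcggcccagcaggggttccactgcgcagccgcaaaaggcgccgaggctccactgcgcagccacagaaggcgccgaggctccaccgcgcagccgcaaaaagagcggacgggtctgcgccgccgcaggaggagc
The X-box of CFAP263 begins 27 bases before the start and that of IFT122 12 bases before it. IFT70B fell with a single arm alone in this window and BBS2 with neither form of the motif.

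The sites themselves are shown for both genes that fell and for 4 genes with an X-box that were not called, with the arms in capitals and the bases between them in lower case.
CFAP263: GTCGCCcgGGCAAC
IFT122: GTTGCCaggGGTAAC
IFT70A: GTTGCCgtGGTAAC
CFAP46: GTCTCCaGGCAAC
CFAP276: GTTGCCtGGCAAC
IFT74: GTTGCCgGGATAC
Sites of this form lay at genes that fell and at genes that did not pass the test. With securinine CFAP263 was at -1.14 and IFT122 at -0.62, whereas IFT70A was at -0.62, CFAP46 at -0.41, CFAP276 at -0.31 and IFT74 at 0.22, none of which passed the test. The 20 sites in 18 genes had spacers of 1 base (9 sites), 2 bases (9) or 3 bases (2), and 16 of them lay within 50 bases before the start or just after it. By family, an X-box was found for 13 of 34 CFAP genes, 5 of 16 IFT genes, 0 of 7 BBS genes and 0 of 2 DNAI genes with a window. Among genes with a window that fell with securinine 2 of 10 held an X-box, and among those not called 16 of 49.

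**Figure D3:**
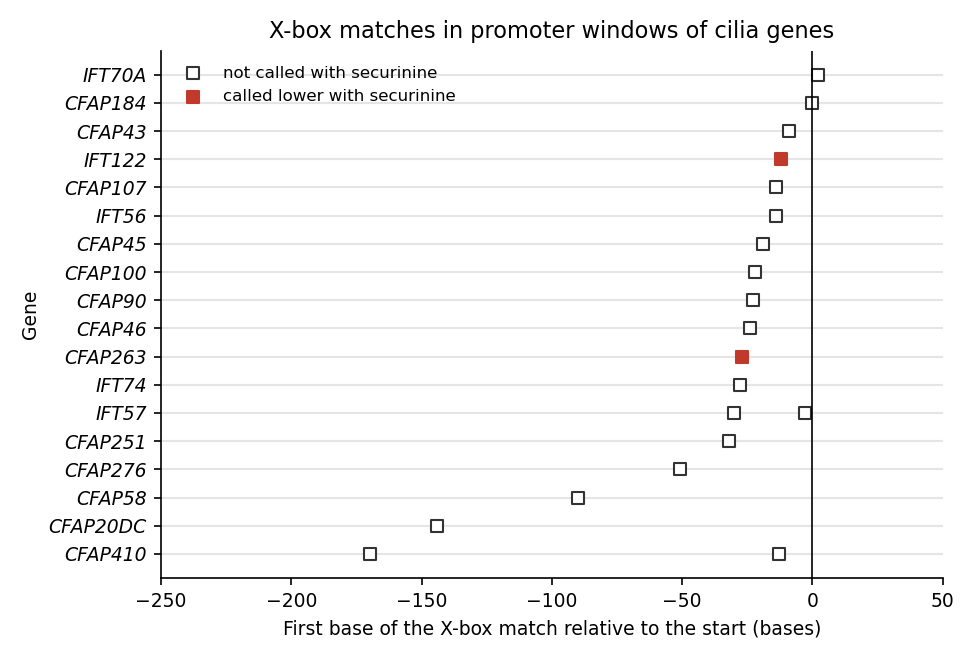
Distance in bases from the start of the gene (0, vertical line) to the first base of each of the 20 X-box matches, with 1 line per gene and filled squares for genes called lower with securinine. Of the sites 16 lie within 50 bases before the start or just after it, the farthest lies 170 bases before it, and the 2 called genes, CFAP263 and IFT122, sit among genes that were not called.

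With 16F16 at 4 µM, 1 of the 64 cilia genes fell in the limma fit and 0 rose, where 0.779% of all genes tested fell and 0.719% rose. Before adjustment, 10 were lower at p under 0.05 (15.6%, beside 11.3% of all genes) and 1 was higher (1.56%, beside 9.78%). The median difference from mock was -0.07, against -0.01 over all genes, in a range from -0.64 to 0.43. Both 16F16 arrays lay below both mock arrays for 24 of the 64 cilia genes (37.5%), beside 27.7% of all genes. They lay above for 11 of the 64, beside 24.1% of all genes. The gene that fell was BBS2, by 0.64 (SE 0.089, adjusted p = 0.042). That call was lost without any 1 of the 6 arrays, with adjusted p-values of 0.099 to 0.22, and no gene of all 14884 was called in those fits, where 2099 to 2904 genes had p under 0.05 before adjustment.

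For several cilia genes the 16F16 arrays did not overlap those of mock, though the genes did not pass the test. Among all genes, both 16F16 arrays lay below both mock arrays for 27.7% and above for 24.1%. IFT140 was at -0.41 ± 0.082 (adjusted p = 0.073), as low as with securinine. CFAP276, a microtubule inner protein, read 3.44 and 3.52 in mock, 3.09 and 3.26 with securinine, and 2.89 and 2.98 with 16F16. Its mean of 3.19 lay below the median of all probe sets (4.20). The arrays of the 3 groups did not overlap, 16F16 lowest, and its difference from mock was -0.54 ± 0.095 (adjusted p = 0.060). CFAP36, which binds the ciliary GTPase ARL3, read 7.27 and 7.23 in mock, 7.21 and 7.07 with securinine, and 6.66 and 6.92 with 16F16. Its 16F16 arrays were the lowest, by -0.46 ± 0.11 (adjusted p = 0.11), beside -0.11 with securinine. DNAI4 went the other way, with 4.71 and 4.57 in mock, 4.77 and 4.82 with securinine, and 5.09 and 5.05 with 16F16. The 16F16 difference of 0.43 ± 0.086 (adjusted p = 0.073) was the highest of the 64.

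For the genes that fell furthest with securinine, the values with 16F16 were closer to mock. CFAP69 was at -0.06 (adjusted p = 0.84), CFAP263 at -0.12 (adjusted p = 0.67) and CFAP418 at -0.31 (adjusted p = 0.22). Set directly against securinine, 16F16 gave higher levels for 6 of the 64 cilia genes (9.38%) and lower for 0. Of all genes, 5.55% were higher and 3.96% lower. At p under 0.05 before adjustment, 16 of the 64 were higher, beside 14.8% of all genes, and 4 lower, beside 12.9%. CFAP69 was higher by 1.10 ± 0.14 (adjusted p = 0.017), CFAP263 by 1.02 ± 0.14 (adjusted p = 0.018) and CFAP418 by 0.76 ± 0.12 (adjusted p = 0.023). IFT122 was higher by 0.55 (adjusted p = 0.031), CFAP91 by 0.49 (adjusted p = 0.031) and IFT70B by 0.42 (adjusted p = 0.031). The doses were 4 and 30 µM, so these are differences between the treatments as given.

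The other 6 genes that fell with securinine had no such call between the treatments. BBS10 was at 0.34 (adjusted p = 0.064), BBS4 at 0.31 (adjusted p = 0.070) and BBS2 at 0.29 (adjusted p = 0.10). IFT46 was at 0.22 (adjusted p = 0.35), CFAP73 at 0.20 (adjusted p = 0.26) and IFT140 at 0.01 (adjusted p = 0.95). The count of 6 was lower in every fit with an array left out. It was 0 with securinine replicate 1, securinine replicate 2 or 16F16 replicate 1 left out, and 2 without any other array.

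**Figure D4:**
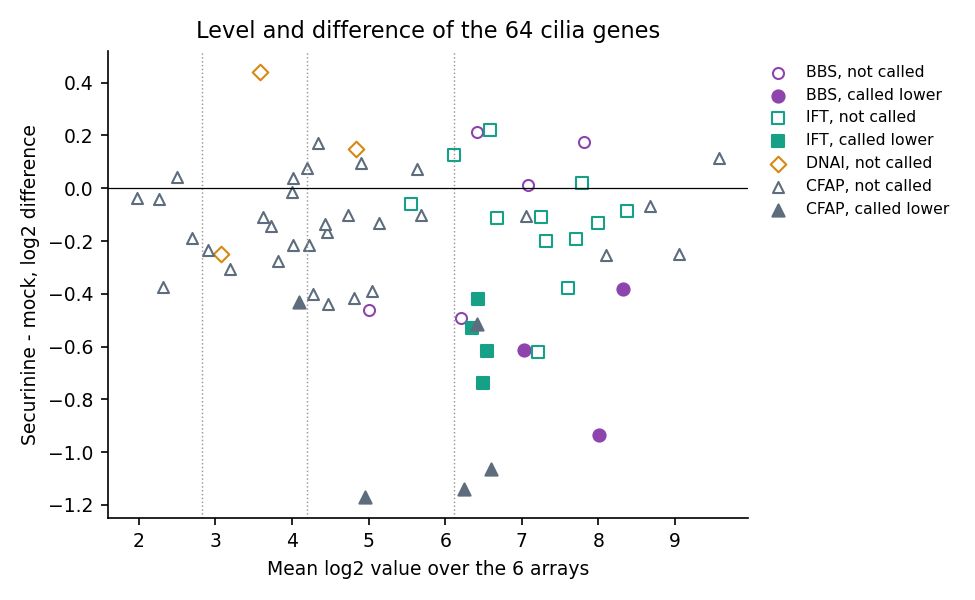
Mean log2 level over the 6 arrays (horizontal axis) against the log2 difference between securinine and mock (vertical axis) for the 64 cilia genes, by family, with filled symbols for called genes and dotted lines at the quartiles and median of all probe sets. Of the 12 called genes 11 lie above the median of all probe sets (4.20), and the brightest, CFAP20 at 9.57, lies near 0.

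The wider set of ciliary genes gave calls in both directions. Of 160 measured genes on 9 pathway lists, 27 fell (16.9%, beside 10.6% of all genes) and 12 of 160 rose (beside 8.40%) with securinine. The share that fell ran from 10.0% on the disassembly and the membrane and Hedgehog lists to 37.5% on the BBSome list. Of 37 radial spoke, central pair and other axonemal genes, 6 fell (16.2%) and 0 rose, with 3 higher at p under 0.05 before adjustment. EFHC2, a microtubule inner protein, fell by 0.93 (SE 0.12, adjusted p = 0.0074), SPAG6, of the central apparatus, by 0.68 (adjusted p = 0.015), MNS1, a microtubule inner protein, by 0.39 (adjusted p = 0.026), and CCDC39, a ruler of axonemal repeats, by 0.57 (adjusted p = 0.037). Of 17 genes for further dynein chains, dynein assembly and docking, 3 fell (17.6%) and 1 rose. RUVBL2, a general chaperone ATPase that also helps to assemble dynein arms, fell by 0.70 (adjusted p = 0.0069), DNAAF11 by 0.47 (adjusted p = 0.015) and ODAD4, of the docking complex, by 0.66 (adjusted p = 0.041), while PIH1D2 rose by 0.47 (adjusted p = 0.015).

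At the ciliary base, 5 of 26 transition zone genes fell (19.2%, beside 10.6% of all genes) and 2 rose (7.69%, beside 8.40%). AHI1, a Joubert syndrome gene, rose by 0.75 (adjusted p = 0.0095), whereas ANKS6, of the inversin compartment, fell by 0.49 (adjusted p = 0.021), RPGR, mutated in retinitis pigmentosa, by 0.56 (adjusted p = 0.024), and TMEM107 by 0.75 (adjusted p = 0.026). Of 19 centriole and assembly genes 2 fell (CEP120 and CEP41) and 2 rose (C2CD3 and KIAA0753). Of 20 genes of the ciliary membrane and Hedgehog pathway, 2 fell (10.0%) and 4 rose (20.0%). UNC119B, a carrier of lipid-tailed ciliary proteins, rose by 0.74 (adjusted p = 0.0057), CDON, a Hedgehog co-receptor, by 0.52 (adjusted p = 0.011) and IQCE by 0.68 (adjusted p = 0.018). GAS1, another Hedgehog co-receptor, fell by 1.11 (SE 0.16, adjusted p = 0.010). Of 10 genes of cilium disassembly, NDEL1 rose by 0.67 (adjusted p = 0.0081) and the mitotic kinase PLK1 fell by 0.36 (adjusted p = 0.036).

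Among 9 measured transcription factors of ciliated cells, 2 fell with securinine (22.2%, beside 10.6% of all genes). TFDP1 fell by 0.48 (adjusted p = 0.018) and MYB by 0.38 (adjusted p = 0.039). FOXJ1, the master factor of motile cilia, was at -0.11 (adjusted p = 0.75), at a mean level of 5.55. The RFX factors on the list (RFX1, RFX2, RFX3, RFX4, RFX5 and RFX7) had no named probe set and were not analysed here. With 16F16, 2 of the 160 rose (1.25%) and 1 fell (0.625%), beside 0.719% and 0.779% of all genes: CEP19 by 0.76 (SE 0.11, adjusted p = 0.046), TP73, a factor upstream of multiciliated cells, by 0.71 (SE 0.091, adjusted p = 0.037), and PLK1 fell by 0.64 (SE 0.084, adjusted p = 0.038). As for BBS2, no 16F16 call was left when any array was left out.

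**Figure D5:**
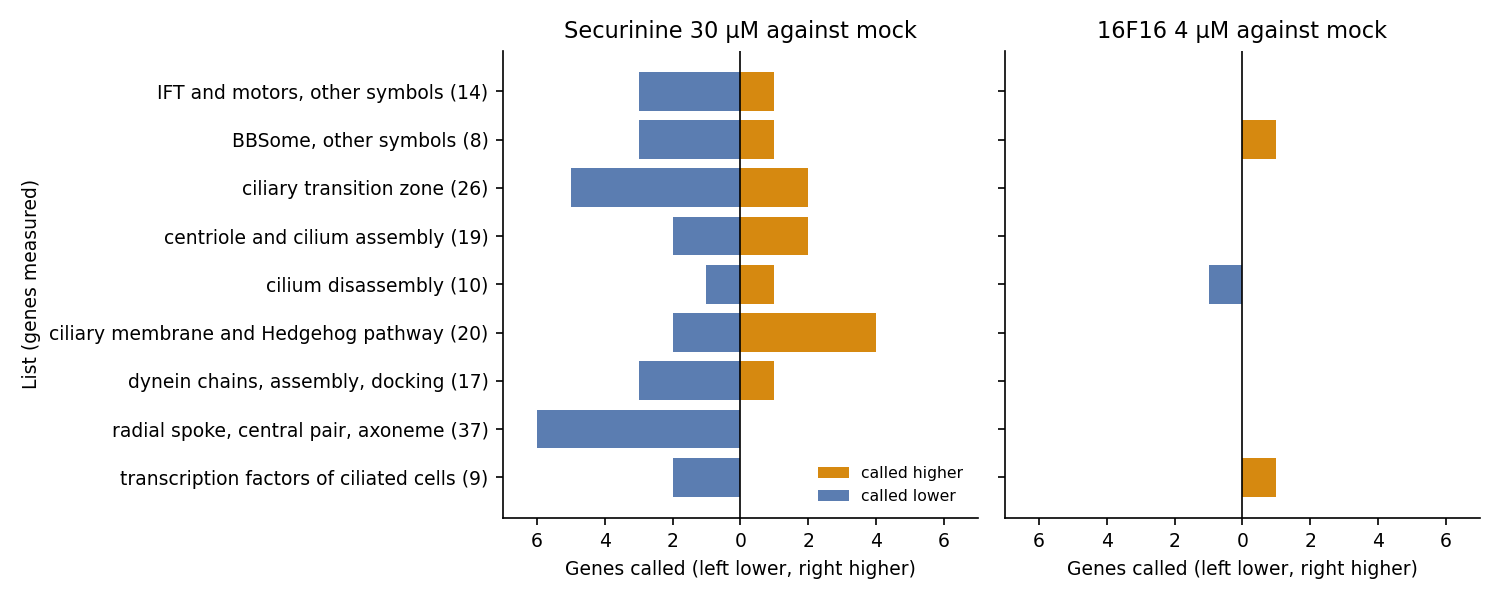
Number of measured genes called higher (bars to the right) and lower (bars to the left) in the limma fit for each of 9 lists of ciliary genes outside the naming rule, with securinine (left) and 16F16 (right) against mock. With securinine the axonemal list has 6 lower and 0 higher, whereas the membrane and Hedgehog list has 2 lower and 4 higher.

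Some markers of cell identity moved in the same arrays. The summed log2 level of the 12 noradrenergic markers was 119.63 to 119.77 in mock, 110.82 to 111.99 with securinine and 114.81 to 115.02 with 16F16, and 7 of the 12 fell with securinine and 3 with 16F16. The 11 multiciliated markers summed to 45.83 to 45.85 in mock, 43.47 to 44.01 with securinine and 44.45 to 46.31 with 16F16. SPAG6 was the one of these that fell with securinine (9.09%, near the 10.6% of all genes), and 0 rose (beside 8.40%). None was higher at p under 0.05 before adjustment, beside 14.9% of all genes. Of 6 mesenchymal markers, SNAI2, TWIST1 and CD44 rose with securinine and 0 fell. The other 3 lay below mock, 2 of them at a limma p under 0.05 before adjustment, so the list did not move as a whole. With 16F16 0 of the 6 were called. All 6 lay above mock, 4 of them at p under 0.05 before adjustment (66.7%, beside 9.78% of all genes). CD14 rose with securinine, 1 of 7 epithelial, blood and endothelial markers (14.3%, beside 8.40% of all genes), and none of 5 sperm markers was called. The part of these shifts in the lower levels of cilia genes was not tested, and fewer cells that express a gene and less RNA per cell cannot be told apart in bulk RNA.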

How the data were processed

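RNA from SH-SY5Y cells was hybridised to 6 Affymetrix Human Gene 2.0 ST arrays, 2 per group. The authors deposited 53617 probe sets per array as log2 values, made with RMA per the submitters' processing notes, which also name limma. Versions, settings, genome build and annotation release were not given in the sources used here. RMA scales arrays to each other and removes a shift common to most genes.

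Probe sets were named through the platform annotation: 16098 (30.0%) had 1 gene, 0 had several and 37519 had none. All 16098 matched RefSeq by Entrez identifier. The brightest probe set by mean over the 6 arrays stood for each of 14884 genes, of which 779 had several. All 6 arrays entered 1 limma fit (limma 3.58.1, R 4.3.3; lmFit and eBayes) on group alone, with Benjamini-Hochberg adjustment over all genes and calls at adjusted p under 0.05. The median standard error was 0.11 on the log2 scale. The number of arrays limits the precision.

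The cilia genes and the gene lists were chosen with earlier results of these data known, so no list was tested as a set. Named genes are those called in any comparison, the 3 with the lowest p in each family and comparison, the 2 brightest and the dimmest of each family, those next to the threshold, and up to 4 called genes per list and comparison. Other members, WDR19, TTC21B, FOXJ1 and the further genes named on lists were picked after their values were seen. Promoter windows came from RefSeq on GRCh38.p14 and were searched for fixed letters. Alternatives changed the scaling, the filter on dim genes, the probe set rule, the variance prior, the arrays in the fit and the replicate number as a block. Same-numbered arrays deviated from their group means with correlations of -0.05 to 0.04 over all genes, so no shared deviation by number was seen. These values cannot tell whether the arrays were prepared in pairs.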

Additional observations from a re-analysis of the deposited data

How the results depend on the processing

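The 14 alternative fits left the sign of every called cilia gene as it was. The median difference of the cilia genes stayed between -0.22 and -0.14 with securinine. With an array left out, cilia genes called lower with securinine numbered 4 to 12 and all genes called 629 to 2462. With 16F16, leaving out an array gave 0 cilia genes and 0 genes in all. For 16F16 against securinine it gave 0 to 2 cilia genes called higher and 0 to 324 genes in all. A lone array was then assumed to vary like the other groups.

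With genes above the median of all probe sets only, 19 cilia genes were called lower with securinine, 4 lower and 1 higher with 16F16, and 10 higher for 16F16 against securinine. All genes called, of 10566 tested, were then 3783 with securinine (2050 of them lower), 1056 with 16F16 and 2522 for 16F16 against securinine. With all probe sets tested, the counts were 6, 0 and 0. Of the 53617 probe sets 2499 were then called with securinine, 1073 of them lower. For both 16F16 comparisons 0 were called in all, where 7250 and 9565 probe sets had p under 0.05 before adjustment. When the variance prior was allowed a trend with intensity, 16 cilia genes were lower with securinine and 5 with 16F16. For 16F16 against securinine 9 were higher and 1 was lower. All genes called were 4129 with securinine, 1808 with 16F16 and 3107 for 16F16 against securinine. With only the 4 arrays compared, 0 cilia genes were lower with 16F16 (0 genes in all, 2904 at p under 0.05) and 2 were higher for 16F16 against securinine (324 genes in all).

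With the replicate number as a block, 10 cilia genes were lower with securinine (2066 genes in all, 1177 of them lower). With 16F16 0 were lower (0 genes in all, 2856 at p under 0.05), and 2 were higher for 16F16 against securinine (503 genes in all). The numbers are not known to pair the arrays. Cause was not tested for any of these, apart from the number of genes or arrays that the alternative itself changes. Over the 64 cilia genes and the listed genes, 3130 of 3498 gene and setting pairs kept their call status with securinine, 3389 with 16F16 and 3181 for 16F16 against securinine. Dim probe sets limit what can be seen, since 5 cilia genes lay at or below the lower quartile.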
